A study of Mus musculus with 8 samples.

Results

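Bnip3, Slc16a3, P4ha2 and Hk2 are 4 genes of glycolysis and of the response to low oxygen, taken from 9294 genes measured in mouse keratinocytes. They were the rows of the deposited array table whose platform annotation gave exactly 1 symbol equal to one of these names, and each gene had 1 such probe set. The 4 genes were selected on their log2 difference between the genotypes in these same 8 arrays, where earlier results had shown them to be lower in cells lacking Nfkbiz. That difference is therefore given for them as a description, with no test. Gene expression was measured on 8 one-colour arrays with biotin-labelled total RNA from keratinocytes, the main cell type of the epidermis, of C57BL/6 mice. The wild-type RAS group was 4 wildtype v-rasHa transduced cultures, and the knockout RAS group was 4 Nfkbiz KO v-rasHa transduced cultures. Both groups carried v-rasHa, a viral oncogenic form of Hras, for 3 days and grew in regular medium without starvation. Nfkbiz encodes IkBz, a nuclear protein that steers a part of the genes bound by NF-kB. No culture without the oncogene and none kept at low oxygen is among the groups. The labels call the arrays of a group biological replicates and do not say how many mice they came from, whether the cells were grown together, or how the gene was deleted.

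Cells short of oxygen stabilise the hypoxia-inducible factors HIF-1 and HIF-2, whose alpha subunits are otherwise marked by prolyl hydroxylases of the Egln family and destroyed through the von Hippel-Lindau protein. The stable factor pairs with Arnt, binds short hypoxia response elements in promoters and enhancers, and raises genes for glucose uptake, glycolysis, lactate export, mitophagy and collagen modification. HIF signalling is also active at normal oxygen in many tumour cells and in cells with oncogenic RAS, and the Hif1a gene itself is a known NF-kB target. Hk2 encodes hexokinase 2, which phosphorylates glucose in the first step of glycolysis. Slc16a3 encodes MCT4, a plasma membrane carrier that exports lactate from glycolytic cells. Bnip3 encodes a protein of the outer mitochondrial membrane that recruits the autophagy machinery to mitochondria. P4ha2 encodes a catalytic subunit of collagen prolyl 4-hydroxylase, which stabilises the collagen triple helix in the endoplasmic reticulum and needs oxygen for its reaction.

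All 4 genes are textbook targets of HIF, and their promoters are shown because they share the letters of the hypoxia response element. The windows run 5′ to 3′ on the gene's strand from 250 bases before to 50 bases after the annotated transcript start, in RefSeq's sequence of build GRCm38.p6, and a window was found for 4 of 4 genes. Capitals mark each match to ACGTG on either strand, where the other strand reads CACGT.
Hk2, chr6:82774405-82774704, minus strand: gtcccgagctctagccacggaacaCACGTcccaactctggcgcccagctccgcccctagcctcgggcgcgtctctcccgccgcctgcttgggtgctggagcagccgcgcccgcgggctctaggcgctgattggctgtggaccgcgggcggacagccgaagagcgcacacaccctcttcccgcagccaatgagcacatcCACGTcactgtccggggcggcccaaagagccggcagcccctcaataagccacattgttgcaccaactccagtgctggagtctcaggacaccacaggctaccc
Slc16a3, chr11:120948817-120949116, plus strand: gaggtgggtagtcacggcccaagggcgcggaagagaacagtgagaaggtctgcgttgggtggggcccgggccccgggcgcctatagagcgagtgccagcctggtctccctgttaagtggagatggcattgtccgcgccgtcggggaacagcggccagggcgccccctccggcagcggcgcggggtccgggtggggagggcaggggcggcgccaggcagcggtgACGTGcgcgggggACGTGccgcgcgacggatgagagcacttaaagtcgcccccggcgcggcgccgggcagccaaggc
Bnip3, chr7:138909457-138909756, minus strand: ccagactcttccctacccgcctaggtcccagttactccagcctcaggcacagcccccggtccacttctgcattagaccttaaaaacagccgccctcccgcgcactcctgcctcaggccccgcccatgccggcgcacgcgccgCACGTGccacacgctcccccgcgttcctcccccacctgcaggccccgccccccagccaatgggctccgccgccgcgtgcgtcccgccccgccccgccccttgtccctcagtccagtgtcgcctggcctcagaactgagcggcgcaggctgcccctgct
P4ha2, chr11:54100674-54100973, plus strand: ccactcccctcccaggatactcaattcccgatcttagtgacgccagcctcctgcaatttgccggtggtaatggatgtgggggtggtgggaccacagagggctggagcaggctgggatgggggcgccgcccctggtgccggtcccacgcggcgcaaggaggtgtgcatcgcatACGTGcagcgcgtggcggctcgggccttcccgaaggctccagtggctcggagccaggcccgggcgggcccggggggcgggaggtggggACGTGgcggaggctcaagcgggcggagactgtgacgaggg
Each of the 4 windows held 2 matches to ACGTG. In Bnip3 these are the 2 strands of 1 palindromic stretch, CACGTG, whose overlapping matches begin 108 and 107 bases before the start. Slc16a3 has its matches 27 and 14 bases before the start, P4ha2 has one 78 bases before and one 11 bases after it, and Hk2 has them 226 and 52 bases before it. Of all 32851 promoter windows of the same length, 19.6% held at least 1 match and 8.21% held at least 2. The 4 windows are rich in G and C, with 67.3% to 73.3% against a median of 52.7%. Among windows with at least 60% G and C, 26.5% held at least 1 match and 12.4% held at least 2. A single CACGTG counts as 2 matches in these shares too. The related core GCGTG was found 3 times in Bnip3 and 2 times in P4ha2 and was not matched in Slc16a3 or Hk2. At least 1 match to it lay in 32.4% of all windows and in 59.2% of those with at least 60% G and C. The shares were 11.1% and 26.6% for at least 2 matches, and 3.91% and 10.3% for at least 3. A loose form of the NF-kB motif, GGG followed by any 5 bases and CC, was matched in all 4 windows, with 2 matches in Hk2, 4 in Bnip3 and 6 each in Slc16a3 and P4ha2, counting both strands. At least 1 such match lay in 50.8% of all windows and in 80.2% of those with at least 60% G and C. For at least 2 matches these shares were 29.7% and 58.4%, and for at least 3 they were 16.8% and 38.9%. Some matches overlap: in Slc16a3 an ACGTG lies within an NF-kB-like match, and several NF-kB-like matches are the same stretch read on both strands. A match is a run of letters and was not tested for binding.

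**Figure D1:**
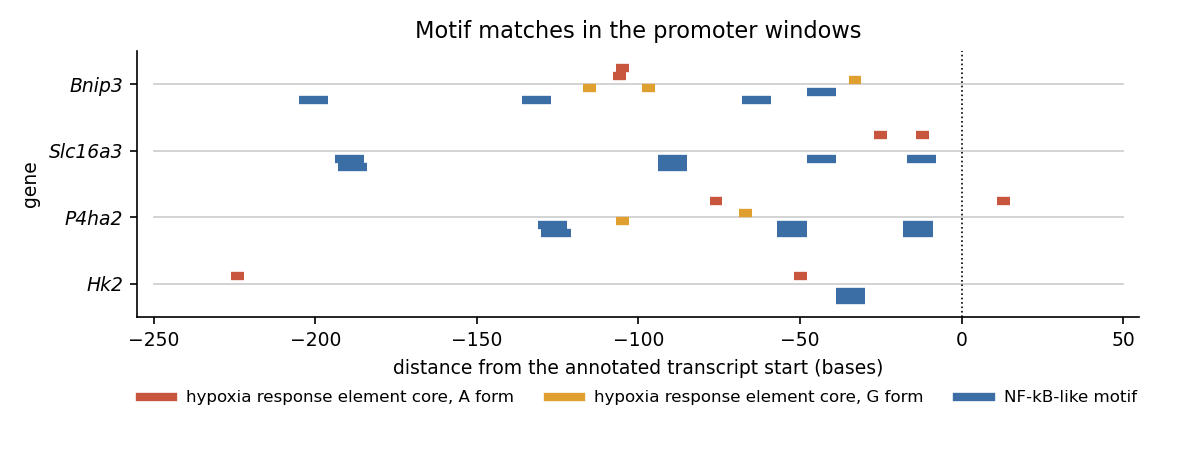
Motif matches along the promoter windows of the 4 genes, with the distance from the annotated transcript start in bases on the x axis and 1 line per gene; marks slightly above their row lie on the gene's strand and marks slightly below on the other strand. The A form (ACGTG, red) occurs 2 times in each gene, the G form (GCGTG, yellow) in Bnip3 and P4ha2, and the loose NF-kB motif (blue) in all 4.

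Over the whole table, the median log2 signal of an array was 4.49 to 4.57 and its lower quartile 3.33 to 3.39. In limma, with a Benjamini-Hochberg adjusted p of 0.05 as the threshold, 412 genes were lower in the knockout cells (4.43% of those tested) and 415 were higher (4.47%), and "fell", "rose" and "called" below refer to this threshold. With arrays centred on their medians, the split was 311 lower and 483 higher. All 4 knockout values lay below all 4 wild-type values for 7.97% of genes and above them for 7.91%. Of 9 measured keratinocyte markers, Krt5, a keratin of basal cells, had mean log2 signals of 13.42 in wild-type and 13.29 in knockout arrays, while Krt14 was not analysed here. Nfkbiz and Hras were not analysed either, so neither the knockout nor the oncogene was checked from these values. Array signals rank no gene above another, so only differences within a gene are compared.

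All 4 genes were lower in the knockout cells, by 1.36-fold to 1.68-fold in signal. Their groups did not overlap for 4 of 4 genes (7.97% of all genes in this direction), and 4 of 4 passed the limma threshold on the lower side (4.43% of all genes), which the choice of the genes fixed. Differences of this size were not among the largest in the table: Bnip3 had the 72nd largest fall, Slc16a3 the 100th, P4ha2 the 114th and Hk2 the 166th, and the 34 genes that fell by at least 2-fold included none of them. The median size of a called log2 difference was 0.35, and the median of the 4 genes was -0.57, against -0.01 over all genes tested.

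Hk2 gave log2 signals of 8.78, 8.92, 8.89 and 9.02 on wild-type RAS arrays 1 to 4 and 8.42, 8.46, 8.49 and 8.48 on knockout RAS arrays 1 to 4. The knockout arrays lay close together, with an SD of 0.03 against 0.10 in wild-type arrays, and all of them lay below the lowest wild-type array, by a gap of 0.29. The means were 8.90 ± 0.10 and 8.46 ± 0.03 (SD, n = 4 per group), a log2 difference of -0.44 ± 0.06 (SE), or 26.3% less signal. Of the 4 genes, Hk2 had the smallest difference.

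Slc16a3 gave 5.65, 5.04, 5.52 and 5.41 on the wild-type RAS arrays and 4.71, 4.80, 5.03 and 4.69 on the knockout RAS arrays, in log2 signal. Here the groups only just separated: wild-type array 2, at 5.04, lay 0.009 above knockout array 3. The former was the lowest of its group and the latter the highest of its own, and the wild-type values spanned 0.61. The means were 5.41 ± 0.26 and 4.81 ± 0.16 (SD, n = 4 per group), with a log2 difference of -0.60 ± 0.12 (SE), or 34% less signal. Without wild-type array 2 the difference was -0.72, and without knockout array 3 it was -0.67. The signal of Slc16a3 lay nearest to the array medians of the 4 genes, and no detection calls were used.

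Bnip3 gave 8.16, 8.44, 8.46 and 8.24 on the wild-type RAS arrays and 7.44, 7.64, 7.71 and 7.53 on the knockout RAS arrays, in log2 signal. A gap of 0.45, the widest of the 4 genes, separated the lowest wild-type from the highest knockout array. The means were 8.33 ± 0.15 and 7.58 ± 0.12 (SD, n = 4 per group), a log2 difference of -0.75 ± 0.08 (SE), or 40.3% less signal, which was the largest of the 4.

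P4ha2 gave 8.42, 8.26, 8.44 and 8.41 on the wild-type RAS arrays and 7.87, 7.80, 7.87 and 7.82 on the knockout RAS arrays, in log2 signal. Wild-type array 2 was the lowest of its group, as it was for Slc16a3, and the knockout values spanned 0.07. The means were 8.38 ± 0.08 and 7.84 ± 0.04 (SD, n = 4 per group), a log2 difference of -0.54 ± 0.06 (SE), or 31.4% less signal. Fibroblasts also make P4ha2, and 6 of 7 measured fibroblast markers were lower in the same arrays, while Postn rose by 1.47. The part of fibroblasts in this value was not tested.

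**Figure D2:**
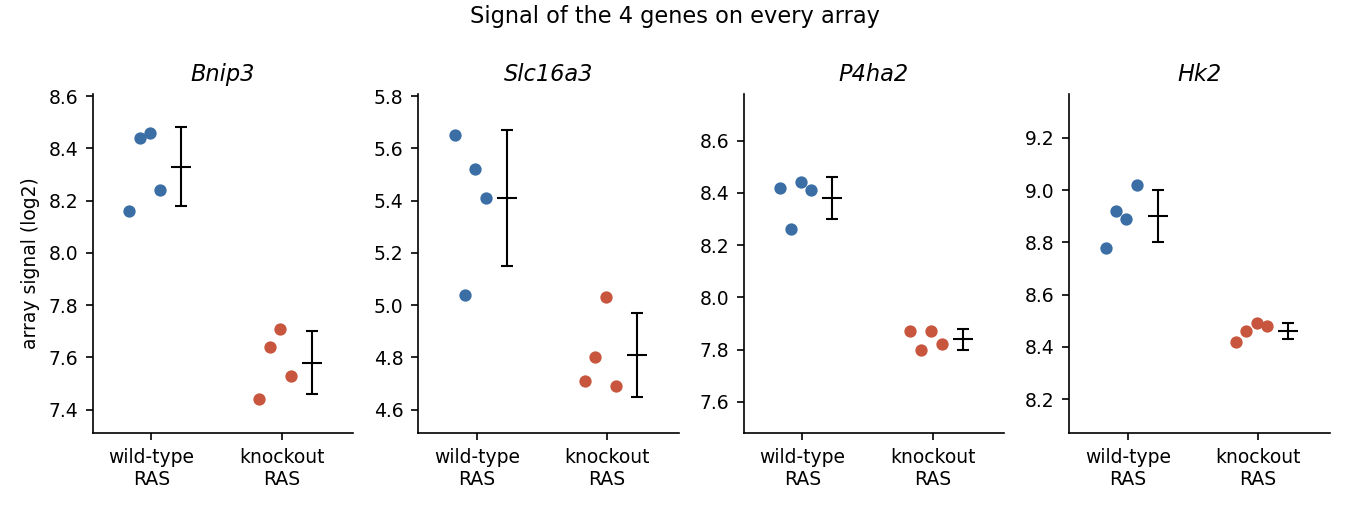
Log2 array signal (y axis, the same span in each panel) of each gene in the wild-type RAS and knockout RAS groups; points are arrays 1 to 4 from left to right, and the bar beside them is the mean ± SD. Knockout points lie below wild-type points in every panel, with a gap of 0.45 in Bnip3 and 0.01 in Slc16a3.

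Within a genotype, the order of the arrays differed from gene to gene. On knockout array 3, all 4 genes lay above their group means, by 0.03 to 0.22, and the mean of the 4 genes was 7.28 against 7.11 to 7.18 on the other knockout arrays. In the wild-type group, replicate 2 had the lowest mean of the 4 genes, 7.67 against 7.75 to 7.83, but its Bnip3 and Hk2 lay above their group means and its Slc16a3 and P4ha2 below. Wild-type array 1 was highest for Slc16a3 and lowest for Bnip3 and Hk2. The pooled SD within groups was 0.06 for P4ha2, 0.07 for Hk2, 0.14 for Bnip3 and 0.22 for Slc16a3, against a median of 0.10 over all genes.

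Other genes of the same pathways moved in both directions. The 8 lists of glycolysis, transport, pyruvate entry, HIF signalling, hypoxia-induced genes, collagen hydroxylases, mitophagy and the pentose phosphate pathway named 151 further genes, of which 49 were measured. In limma 8 of the 49 fell, 5 rose and 36 did not pass, or 16.3% and 10.2%, beside 4.43% and 4.47% of all genes. The median log2 difference of the 49 was -0.03, against -0.01 over all genes. The count of falls stayed at 8 with the mean of a gene's probe sets or without the lowest 25% of genes. It was smaller in the other runs, with 7 without wild-type array 1. Arrays centred on their medians, repeated quantile normalization or a replicate block gave 5. Leaving out wild-type array 2 or 4 or knockout array 1 gave 3. Without wild-type array 3 or knockout array 4 the count was 4, and without knockout array 2 or 3 it was 5.

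**Figure D3:**
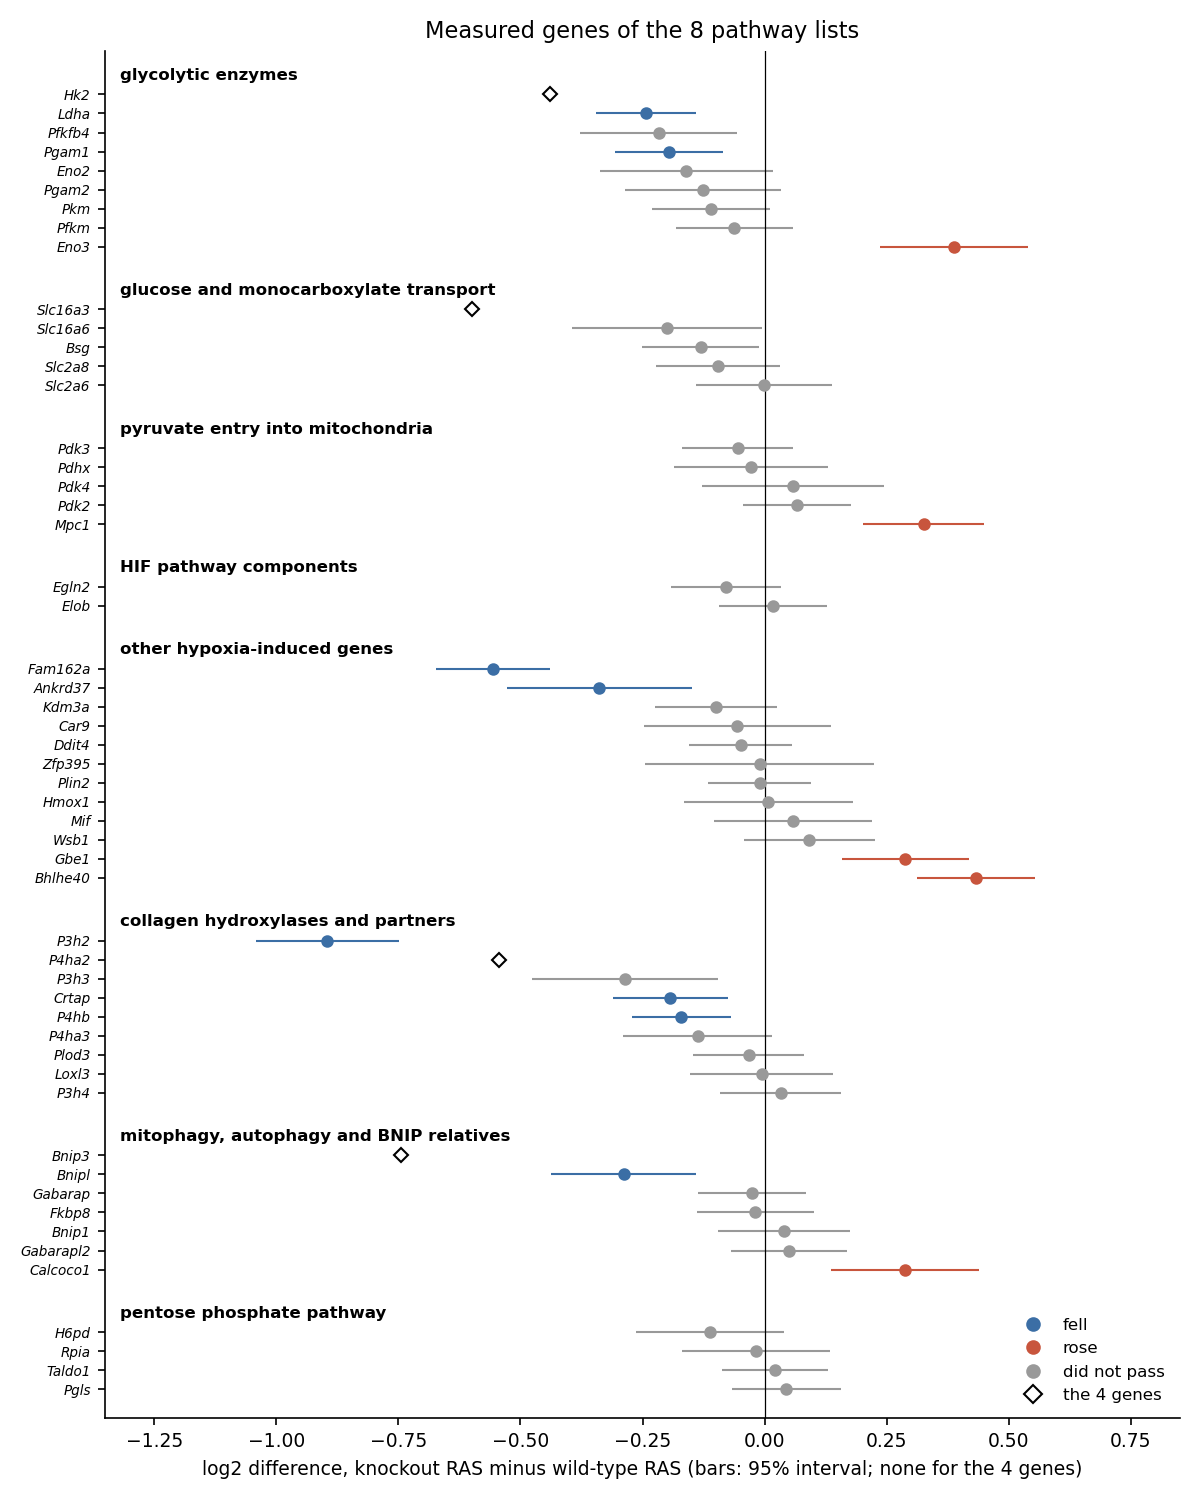
Log2 difference, knockout RAS minus wild-type RAS (x axis), of the measured genes of the 8 lists (y axis), with 95% intervals of the limma fit; open diamonds without bars are the 4 chosen genes. Blue genes fell, red genes rose and grey genes did not pass; P3h2 lies farthest to the left at -0.90 and Bhlhe40 farthest to the right at 0.43.

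Among glycolytic enzymes next to Hk2, 2 of 8 measured fell, 1 rose and 5 did not pass, with a median log2 difference of -0.14. Ldha, which turns pyruvate into the lactate that MCT4 exports, gave 12.38, 12.42, 12.36 and 12.43 in wild-type RAS arrays and 12.15, 12.15, 12.17 and 12.14 in knockout RAS arrays. The groups did not overlap, and Ldha fell by 0.24 ± 0.05 (SE; limma adjusted p = 0.00664). Pgam1, the phosphoglycerate mutase of most tissues, fell by 0.20 ± 0.05 (adjusted p = 0.034). Its call was lost in 10 of 13 alternatives, with an adjusted p of up to 0.101. Eno3, the enolase best known from muscle, rose from 5.74 ± 0.12 to 6.12 ± 0.08 (SD, n = 4 each) with a limma adjusted p = 0.00439. Pkm, the pyruvate kinase gene, and Pfkfb4, a regulator of phosphofructokinase, had differences of -0.11 and -0.22 that did not pass (adjusted p = 0.298 and 0.102). Without wild-type array 2, 3 or 4 or knockout array 1, 3 or 4, 1 enzyme fell in place of 2. Hk1 and Pgk1 were not analysed here.

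Of 4 measured transport genes beside Slc16a3, none passed the limma threshold in either direction, and 2 had an unadjusted p under 0.05. Bsg, the gene of basigin, the chaperone that brings MCT4 to the membrane, had a log2 difference of -0.13 with a 95% interval of -0.25 to -0.01 (adjusted p = 0.195). Slc16a6, another member of the monocarboxylate carrier family, had -0.20, with an interval of -0.39 to -0.01 (adjusted p = 0.226). Slc2a6 and Slc2a8, glucose carriers, had -0.00 and -0.10. The glucose carrier gene Slc2a1 and the lactate carrier gene Slc16a1 were not analysed here. Past the branch point of pyruvate, Mpc1, a subunit of the carrier that takes pyruvate into mitochondria, rose from 8.49 ± 0.08 to 8.81 ± 0.05 (SD, n = 4 each) with a limma adjusted p = 0.00368, and 4 other genes of that list did not pass. None of 4 genes of the pentose phosphate pathway passed in limma, and none had an unadjusted p under 0.05.

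Hypoxia-induced genes outside glycolysis split in direction: of 12 measured, 2 fell, 2 rose and 8 did not pass, with a median log2 difference of -0.01. Fam162a, which encodes a mitochondrial protein induced by HIF-1, gave 10.90, 11.04, 11.02 and 11.03 in wild-type RAS arrays and 10.40, 10.51, 10.43 and 10.44 in knockout RAS arrays. Its groups lay far apart, with a log2 difference of -0.56 ± 0.05 (SE; limma adjusted p = 5.55e-05). Ankrd37, a small ankyrin repeat gene induced by low oxygen, fell by 0.34 ± 0.09 (adjusted p = 0.0337), at signals of 5.09 and 4.75 on the log2 scale. Its groups overlapped, and the call was lost in 7 of 13 alternatives with an adjusted p of up to 0.0955. Bhlhe40, a transcriptional repressor induced by HIF and by many other stimuli, rose by 0.43 ± 0.05 (limma adjusted p = 0.000425), with 10.65 to 10.77 in wild-type RAS arrays and 11.08 to 11.21 in knockout RAS arrays. Gbe1, the glycogen branching enzyme gene, rose by 0.29 ± 0.06 (adjusted p = 0.0108). The often used hypoxia markers Ddit4, Plin2, Kdm3a and Car9 had log2 differences of -0.05, -0.01, -0.10 and -0.06, and none of the 4 passed (adjusted p = 0.634, 0.945, 0.366 and 0.792). The interval for Ddit4 ran from -0.15 to 0.06 and that for Plin2 from -0.12 to 0.10. For Car9 it was wider, from -0.25 to 0.14, at mean log2 signals of 4.10 in wild-type and 4.05 in knockout arrays, below the array medians. Without wild-type array 2, 3 or 4 or knockout array 1, 2 or 3, 1 gene of this list fell in place of 2.

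Of the HIF pathway itself, 2 of 17 listed genes were measured. Egln2, one of the oxygen-sensing prolyl hydroxylases, had a log2 difference of -0.08 with a 95% interval of -0.19 to 0.03, and Elob, a subunit of the von Hippel-Lindau ubiquitin ligase, had 0.02 with an interval of -0.09 to 0.13. Neither passed in limma (adjusted p = 0.424 and 0.905). Hif1a and the HIF target Vegfa were not analysed here, and the arrays measure transcripts, whereas HIF-1 alpha is controlled largely through its protein.

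Of the 8 lists, collagen hydroxylation had the most falls. Beside P4ha2, 3 of the 8 genes measured fell and 5 did not pass, with a median log2 difference of -0.15. P3h2, which encodes a prolyl 3-hydroxylase of collagens, gave 7.14, 7.09, 7.14 and 7.16 in wild-type RAS arrays and 6.09, 6.21, 6.41 and 6.24 in knockout RAS arrays. The groups did not overlap, and its log2 difference of -0.90 ± 0.07 (SE; limma adjusted p = 8.25e-06) was larger in size than that of any of the 4 chosen genes. Crtap is the partner of another prolyl 3-hydroxylase, P3h1, which was not analysed here, and P4hb is the partner subunit of P4ha2 in the 4-hydroxylase. Crtap and P4hb fell by 0.19 ± 0.05 and 0.17 ± 0.05 (adjusted p = 0.0466 and 0.0443). Both lay just inside the threshold, and their calls were lost in 9 and 11 of 13 alternatives, with adjusted p of up to 0.115 and 0.116. With arrays centred on their medians or with a replicate block, 1 gene of the list fell in place of 3. The same held without wild-type array 2, 3 or 4 or knockout array 1, 2 or 4. P4ha3, another catalytic subunit, had -0.14 (adjusted p = 0.299) at signals below the lower quartiles of the arrays, and P4ha1 was not analysed here.

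Among 6 measured mitophagy and autophagy genes and relatives of Bnip3, 1 fell, 1 rose and 4 did not pass, with a median of 0.01. Bnipl, a relative of Bnip2 in spite of its name, fell by 0.29 ± 0.07 (limma adjusted p = 0.0218), and Calcoco1, an autophagy receptor gene, rose by 0.29 ± 0.07 (adjusted p = 0.0249). Each of these calls was lost in 4 of 13 alternatives, Bnipl without wild-type array 2 or 4 or knockout array 1 or 4, and Calcoco1 without wild-type array 3 or 4 or knockout array 2 or 3. The autophagosome genes Gabarap and Gabarapl2, whose family of proteins Bnip3 binds, had differences of -0.03 and 0.05 (adjusted p = 0.844 and 0.679). Bnip3l, the closest relative of Bnip3, was not analysed here.

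**Figure D4:**
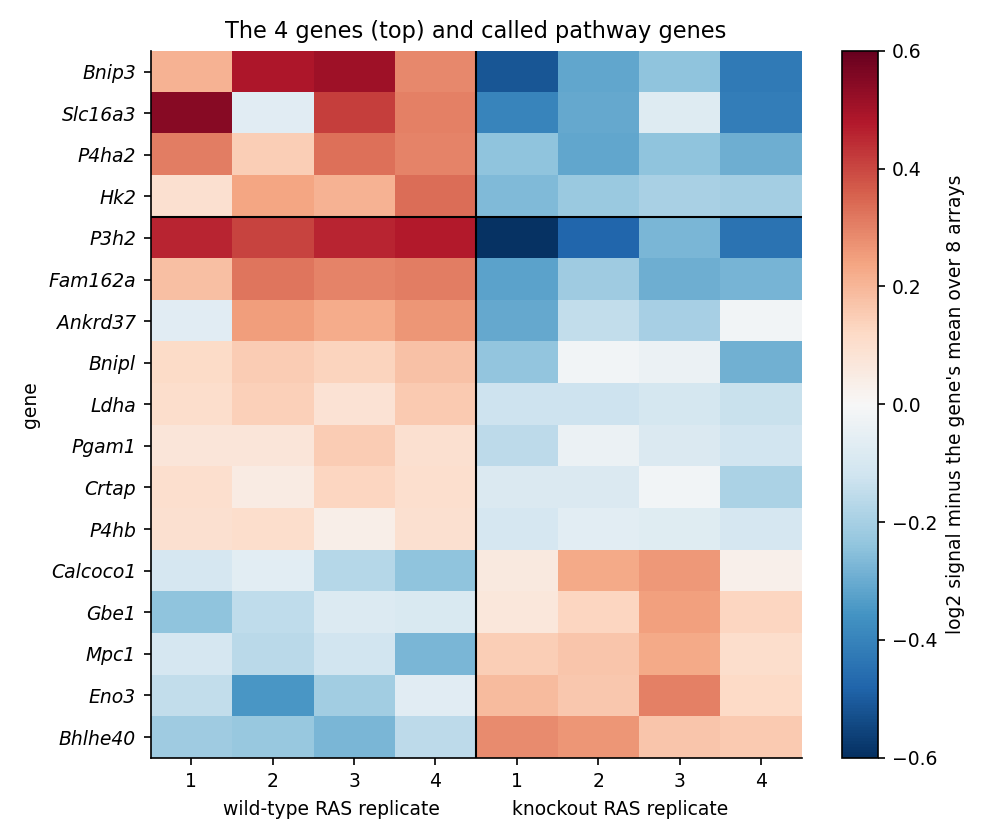
Log2 signal minus the gene's mean over the 8 arrays (colour, red above and blue below the mean) for the 4 chosen genes (above the line) and the 13 other pathway genes that fell or rose, with arrays on the x axis. Most squares of the 8 genes that fell are red in the wild-type and blue in the knockout columns, and the 5 genes that rose run the other way. Wild-type array 2 is slightly below the mean for Slc16a3, and wild-type array 1 is below it for Ankrd37.

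The letters ACGTG were counted in the promoters of these pathway genes too, after their values were seen. Of the 8 that fell, 6 had a window, and 5 of these held ACGTG in at least 1 window. Of the 5 that rose, 4 had a window and 0 held it, and of 30 that did not pass, 15 held it. Over the whole table the share was 26.8% of 321 genes that fell, 21.6% of 324 that rose and 24.2% of 6656 that did not pass. Differences between these shares were not tested, and the counts in the pathway lists are small.

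Genes with values most like those of the 4 were sought over the 8 arrays by the root mean square difference after each gene's own mean was subtracted. This measure follows the same genotype difference that chose the 4 genes and is a description. The genes nearest to Hk2 were Smox, the spermine oxidase gene, at 0.050, Sowahc at 0.057 and Col6a1, a collagen VI chain, at 0.057, where the median over all other genes was 0.24. Nearest to Slc16a3 were Ptgir, the prostacyclin receptor gene, at 0.115, Slc7a3, a carrier of cationic amino acids, at 0.128 and Qpct, glutaminyl-peptide cyclotransferase, at 0.133. Nearest to Bnip3 were Degs2, a sphingolipid desaturase and hydroxylase gene, at 0.082, Tgm1, the transglutaminase of the cornified envelope, at 0.084 and Pla2g4d, a cytosolic phospholipase, at 0.089. Nearest to P4ha2 were Mmp10, a matrix metalloproteinase, at 0.034, Slc7a3 at 0.047 and Myl7, an atrial myosin light chain, at 0.057. None of these 11 genes belongs to the pathway lists, whose 49 other measured genes are a small part of the 9294 tested. The 4 genes lay 0.11 (P4ha2 and Hk2) to 0.24 (Bnip3 and Slc16a3) from each other, and each had nearer neighbours among the far more numerous other genes. The measure is not scaled, so genotype differences of unlike size add to these distances.

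Markers of fibroblasts, which can be carried into keratinocyte cultures and which make collagen hydroxylases, were lower in the same arrays. Of 7 measured markers, 6 fell and 1 rose in limma, with a median log2 difference of -0.61. The mean log2 signal of the 7 markers lay at 6.73 to 6.85 in wild-type RAS arrays and 6.32 to 6.52 in knockout RAS arrays. Twist2, a transcription factor of dermal fibroblasts, fell by 1.02 ± 0.06, the proteoglycan gene Dcn fell by 0.97 ± 0.08 and Dpt, the dermatopontin gene, fell by 0.85 ± 0.07 (SE; limma adjusted p = 2.21e-06, 1.83e-05 and 1.07e-05). Postn, the periostin gene, rose by 1.47 ± 0.09 (limma adjusted p = 2.12e-06). The part of fibroblasts in the values of P4ha2, P3h2 or the other genes was not tested. In bulk RNA, fewer cells of a type and less RNA per cell cannot be told apart. Of 3 melanocyte markers, 1 fell past the limma threshold, though all 3 had log2 differences below 0, and their mean log2 signals were 9.63 to 9.72 in wild-type and 9.28 to 9.57 in knockout RAS arrays. Of 9 leukocyte markers, 1 fell and 8 had differences below 0, and their mean log2 signals lay at 4.52 to 4.65 and 4.43 to 4.50. None of 5 endothelial markers passed in limma, with none but Pecam1 at an unadjusted p under 0.05 (adjusted p = 0.187). Of 9 keratinocyte markers, 1 fell and 5 had differences below 0, with mean log2 signals of 10.62 to 10.67 and 10.56 to 10.72.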

How the data were processed

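The data were a table of 11373 probe sets on 8 arrays. The authors' deposited values lie between 1.57 and 13.9 and were therefore read as log2 signals. How they were summarised and normalized, and with which genome build, is not given in the sources used here. Per the labels, RNA was extracted by Trizol with a Qiagen column and carried a biotin label. The platform annotation gave 1 symbol to 9374 probe sets, several to 479 and none to 1520. A gene took its probe set with the highest mean signal, which left 9294 genes, and 9201 matched the RefSeq gene table by Entrez identifier. The model had genotype as its only term and was fitted in R 4.3.3 by limma 3.58.1 (lmFit, eBayes), with Benjamini-Hochberg adjustment over the 9294 genes. The functions were tested on simulated data first, where 35.4% of 1.2-fold and 93% of 1.5-fold changes were recovered. Of the simulated calls, 3.87% were false. A gene that did not pass may therefore still differ by a small amount. The simulation changed fewer genes than the 827 called here and drew independent noise for each gene, so its shares may differ from those in the data. P-values set the genotype difference against the spread between arrays of a group, which eBayes moderates across genes. The number of arrays limits the precision. As the labels give no number of mice, the spread between animals may not be covered. Quantile normalization, median centring, the mean of a gene's probe sets, a filter on the lowest 25% of genes, each array left out and a replicate block were tried as alternatives.

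The 4 genes and the lists were chosen with earlier results of these data known. Genes named are the 4, up to 4 called genes of each pathway list and of the fibroblast list with the largest change, 9 fixed genes of which 1 was measured (Ldha), and the 3 nearest genes to each of the 4. Krt5, Pkm, Pfkfb4, Bsg, Slc16a6, Slc2a6, Slc2a8, Ddit4, Plin2, Kdm3a, Car9, Egln2, Elob, P4ha3, Gabarap, Gabarapl2 and Pecam1 were chosen after their values were seen.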

Additional observations from a re-analysis of the deposited data

Results flagged for a closer look

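Of 64 groups of 4 arrays, 2 for each of the 32 named genes, 3 had 1 array far from the other 3 by Dixon's test at the 95% level, where chance flags about 1 in 20 groups. Wild-type RAS replicate 1 was low for both Fam162a, with a log2 signal of 10.90 against 11.02 to 11.04, and Ankrd37, with 4.85 against 5.14 to 5.18. Wild-type RAS replicate 2 was low for Twist2, with 8.44 against a value of 8.53 on each of the others. None of the 4 chosen genes was flagged in either group.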

How the results depend on the processing

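The differences of Bnip3, Slc16a3, P4ha2 and Hk2 stayed below 0 in 48 of 48 alternative values and within 1 SD of the reported value in 48. Most of these signs, and most of the values within 1 SD, were fixed in advance. The groups of the 4 genes did not overlap, so leaving out 1 array could not reverse a sign. With 4 arrays per group, it also could not move a difference by as much as 1 pooled SD within groups. With 1 probe set per gene, the mean of probe sets repeated the reported value, and so did the replicate block. Leaving out 1 array at a time, the differences ranged from -0.80 to -0.70 for Bnip3, -0.72 to -0.52 for Slc16a3, -0.58 to -0.52 for P4ha2 and -0.48 to -0.40 for Hk2. The numbers of genes called over the table stayed within 1.5 times, at 305 to 352 lower and 288 to 350 higher with 1 array left out. The falls among other pathway genes were less stable. With repeated quantile normalization, 5 pathway genes fell in place of 8, with 1 glycolytic enzyme and 1 hypoxia-induced gene. With arrays centred on their medians, 5 fell, with 1 glycolytic enzyme and 1 collagen hydroxylase gene. With 1 array left out, 3 to 7 pathway genes fell. These held 1 to 2 glycolytic enzymes, 1 to 2 hypoxia-induced genes and 1 to 2 collagen hydroxylase genes. In the list of mitophagy genes and BNIP relatives, 0 to 1 fell, which was Bnipl where called, and 0 to 1 rose. The cause was not tested. Where 1 array was left out, the fit also had fewer arrays. Of 28 other named genes, 22 kept their call and direction in all alternatives run, and 6 lost the call in at least 1. With the replicate number as a block, 5 pathway genes fell, with 1 glycolytic enzyme and 1 collagen hydroxylase gene, and 334 genes were lower and 325 higher over the table. Deviations of same-numbered arrays correlated across genes at 0.085, -0.001, 0.031 and -0.049, and not every array was closest to its own number, so the numbers were not taken to pair the arrays. No detection calls were used, so signals near the lower quartiles of the arrays could not be told from background.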
